A study of Homo sapiens with 24 samples.

Results

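The genes described here are the nuclear protein-coding genes of respiratory complexes II to V. They were chosen by symbol: SDHA to SDHD, CYC1, CYCS, and every gene whose symbol starts with UQCR, COX4, COX5, COX6, COX7, COX8, ATP5F1, ATP5M, ATP5P or ATP5IF. The rule found 52 of 20037 protein-coding genes in the RefSeq gene table: 4 of complex II, 10 of complex III, 1 for cytochrome c, 17 of complex IV and 20 of complex V. One of the 20, ATP5MF-PTCD1, is a readthrough record that shares an end with ATP5MF and therefore its peaks. A gene was counted as having a peak in a library when a deposited peak shared at least 1 base with the 1 kb on either side of either end of its gene record (GRCh38).

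Peaks came from CUT&RUN, in which an antibody tethers a nuclease to chromatin and the DNA cut around the bound protein is sequenced. The cells were HUDEP-2, an immortalised human erythroid progenitor line, and each of the 3 edited lines is a single clone. In clone T the nuclear receptor TR4 (gene NR2C2) ends in 3 FLAG and 3 MYC epitopes, in clone B the zinc-finger repressor BCL11A carries 3 HA and 3 MYC epitopes, and clone TB has both tagged proteins. Every clone was grown in the same medium with SCF, EPO, dexamethasone and doxycycline and received no other treatment. The TR4-directed groups were MYC antibody in clone T, TR4 antibody in clone T and TR4 antibody in clone TB. The BCL11A-directed groups were MYC antibody in clone B, HA antibody in clone B and HA antibody in clone TB. MYC antibody in clone TB reads both proteins and was kept out of the comparison of targets, and non-specific IgG served as the control in each clone. Each of the 7 target groups had 3 libraries and IgG had 1 library per clone. Whether replicate libraries stem from separate cultures is not in the labels, and the spread that p-values are measured against may therefore be technical.

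The inner mitochondrial membrane holds the respiratory chain. Complex II feeds electrons from succinate into ubiquinone, complex III passes them to cytochrome c, complex IV uses them to reduce oxygen, and complex V, the ATP synthase, makes ATP from the resulting proton gradient. Complex II is encoded wholly in the nucleus, whereas complexes III, IV and V also contain subunits encoded by mitochondrial DNA. Erythroid precursors need mitochondria for haem synthesis and lose them as they mature to red cells. TR4 is known to bind direct repeats of the half-site AGGTCA, and BCL11A to bind TGACCA; both are known as repressors of the fetal γ-globin genes.

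Promoter sequences of 7 genes are given here because they carry the strongest TR4 peaks of the set (ATP5ME, SDHD, SDHB, ATP5PF and an internal start of ATP5F1A), a peak pattern with larger BCL11A folds (ATP5PO), or half-sites with no peak in any library (COX6A2). They are RefSeq sequences of GRCh38.p14, from 250 bases before to 50 bases after the start, 5′ to 3′ on the gene's strand. Capitals mark AGGTCA or GGGTCA on either strand (TGACCT and TGACCC when read on the opposite strand). The windows are chr4:674227-674526 (minus strand) for ATP5ME, chr11:112086623-112086922 (plus) for SDHD, chr1:17053983-17054282 (minus) for SDHB and chr21:25735005-25735304 (minus) for ATP5PF. The others are chr18:46098247-46098546 (minus) for ATP5F1A, chr21:33915755-33916054 (minus) for ATP5PO and chr16:31428311-31428610 (minus) for COX6A2.
ATP5ME promoter: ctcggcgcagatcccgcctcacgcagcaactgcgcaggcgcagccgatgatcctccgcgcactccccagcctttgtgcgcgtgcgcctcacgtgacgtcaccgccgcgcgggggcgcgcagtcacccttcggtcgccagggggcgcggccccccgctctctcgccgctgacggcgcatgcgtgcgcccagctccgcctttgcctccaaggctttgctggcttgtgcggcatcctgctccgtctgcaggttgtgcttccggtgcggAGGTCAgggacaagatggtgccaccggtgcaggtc
SDHD promoter: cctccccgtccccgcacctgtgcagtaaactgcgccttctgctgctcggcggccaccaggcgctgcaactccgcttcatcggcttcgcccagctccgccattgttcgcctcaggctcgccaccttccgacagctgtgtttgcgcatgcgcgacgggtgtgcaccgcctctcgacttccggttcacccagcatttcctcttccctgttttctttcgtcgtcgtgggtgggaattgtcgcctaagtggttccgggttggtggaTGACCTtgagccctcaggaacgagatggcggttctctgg
SDHB promoter: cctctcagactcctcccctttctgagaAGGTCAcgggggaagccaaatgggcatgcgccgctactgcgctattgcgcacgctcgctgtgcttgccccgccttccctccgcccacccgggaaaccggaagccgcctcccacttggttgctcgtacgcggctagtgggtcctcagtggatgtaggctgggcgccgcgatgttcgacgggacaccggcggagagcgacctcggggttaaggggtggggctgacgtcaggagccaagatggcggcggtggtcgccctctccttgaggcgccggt
ATP5PF promoter: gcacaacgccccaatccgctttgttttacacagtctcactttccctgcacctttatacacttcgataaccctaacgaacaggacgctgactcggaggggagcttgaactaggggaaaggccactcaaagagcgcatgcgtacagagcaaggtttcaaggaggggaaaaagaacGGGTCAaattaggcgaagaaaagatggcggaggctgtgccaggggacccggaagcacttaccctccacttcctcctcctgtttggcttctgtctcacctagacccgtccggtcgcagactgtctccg
ATP5F1A internal promoter: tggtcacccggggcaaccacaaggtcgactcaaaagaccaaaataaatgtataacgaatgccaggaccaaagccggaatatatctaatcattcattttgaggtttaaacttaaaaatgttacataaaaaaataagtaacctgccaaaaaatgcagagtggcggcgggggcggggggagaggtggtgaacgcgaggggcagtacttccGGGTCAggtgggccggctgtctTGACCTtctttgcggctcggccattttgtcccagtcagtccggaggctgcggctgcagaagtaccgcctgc
ATP5PO promoter: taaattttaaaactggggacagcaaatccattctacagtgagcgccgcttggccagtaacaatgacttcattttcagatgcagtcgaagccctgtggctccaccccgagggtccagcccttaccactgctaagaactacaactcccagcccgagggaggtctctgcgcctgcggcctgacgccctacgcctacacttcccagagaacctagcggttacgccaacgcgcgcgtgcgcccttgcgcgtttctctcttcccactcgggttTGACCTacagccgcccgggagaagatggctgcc
COX6A2 promoter: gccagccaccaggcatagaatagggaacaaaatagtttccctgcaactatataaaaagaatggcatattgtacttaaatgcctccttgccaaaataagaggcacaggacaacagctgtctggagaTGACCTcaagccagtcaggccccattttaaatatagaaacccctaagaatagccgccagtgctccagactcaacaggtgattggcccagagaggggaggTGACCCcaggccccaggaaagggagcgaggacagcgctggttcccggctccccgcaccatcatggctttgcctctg

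Most complex II to V genes had a peak of either protein at a gene end. In libraries directed at TR4, between 17 and 41 of the 52 genes had a peak, with a median of 36. In libraries directed at BCL11A, the count ran between 26 and 41, with a median of 37. The 3 libraries of MYC antibody in clone TB had a peak at 41, 41 and 37 of the genes. The 3 IgG libraries had a peak at 0, 0 and 1. The counts of the 2 targets overlapped over nearly their whole range.

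A group peak was counted where 2 or 3 of the 3 libraries of a group had a peak. With MYC antibody in clone T, 37 of the 52 genes (71.2%) had a group peak, beside 27.2% of all protein-coding genes. With TR4 antibody the count was 34 genes (65.4%) in clone T, beside 25.5% of all genes, and 37 (71.2%) in clone TB, beside 28.0%. In each of these groups the share among complex II to V genes was more than double that among all genes.

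With MYC antibody in clone B, 37 genes (71.2%) had a group peak, beside 44.8% of all genes. With HA antibody the count was 38 (73.1%) in clone B, beside 42.5% of all genes, and 35 (67.3%) in clone TB, beside 39.3%. MYC antibody in clone TB gave 41 genes (78.8%), beside 43.3% of all genes. The 37 of MYC antibody in clone T fell to 17 when its first or its second library was left out and both remaining libraries had to hold the peak, since the third library had a peak at only 17 of the genes.

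Measured within each library, the percentage of complex II to V genes with a peak was 2.26 to 2.69 times that of all genes in the 9 TR4-directed libraries (median 2.41, mean 2.42 ± 0.133, SD). In the 9 BCL11A-directed libraries it was 1.51 to 2.01 times (median 1.69, mean 1.71 ± 0.155, SD). The ranges did not overlap. TR4-directed libraries had a peak at 13.7% to 34.9% of all genes against 26.8% to 49.0% in BCL11A-directed libraries. The highest ratio possible falls as the share of all genes rises. A library at 49.0% could not reach 2.26 even with a peak at every complex II to V gene. The lack of overlap therefore cannot be read apart from these shares. With every list limited to its 4621 strongest peaks, the length of the shortest target list, the ratio was 2.12 to 3.36 (median 2.45) in TR4-directed libraries and 1.33 to 2.44 (median 2.098) in BCL11A-directed libraries, and the ranges overlapped. The ratios are a description and carry no test.

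**Figure D1:**
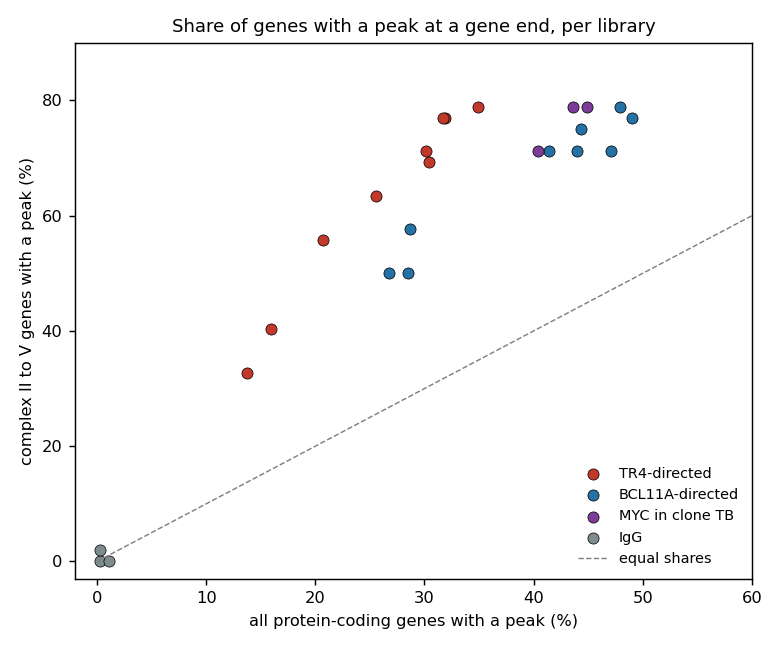
Percentage of all protein-coding genes with a peak within 1 kb of a gene end (horizontal axis) and of the 52 complex II to V genes (vertical axis), with 1 point per library and a dashed line at equal shares. All 21 target libraries lie above the line, and TR4-directed libraries reach a given share of complex II to V genes at a smaller share of all genes.

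Deposited lists ran from 4621 to 31432 peaks for the 21 target libraries and from 2036 to 4828 peaks for IgG. The third replicate had the shortest list of its group in all 7 target groups, and read depth is unknown. As a check on the cell type, 11 erythroid markers were read at their gene ends. With MYC antibody in clone B, 10 (90.9%) had a group peak, beside 44.8% of all genes. With MYC antibody in clone T, 4 (36.4%) had one, beside 27.2%. With TR4 antibody, 3 (27.3%) had one in clone T, beside 25.5%, and 3 (27.3%) in clone TB, beside 28.0%. ALAS2, the erythroid enzyme of haem synthesis, had no target peak at a gene end. Of 15 markers of T cells, B cells, liver, neurons and muscle, 1 had a group peak with MYC antibody in clone T and 1 in clone B. Of the 15, 9 had no peak in any target library.

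Complex II, succinate dehydrogenase, had peaks of both proteins at all 4 genes. Group peaks were at 4, 3 and 4 genes in the TR4-directed groups (MYC in clone T, TR4 in clone T, TR4 in clone TB). In the BCL11A-directed groups (MYC in clone B, HA in clone B, HA in clone TB) they were at 2, 3 and 3. Over all protein-coding genes the shares were 27.2%, 25.5% and 28.0%, and 44.8%, 42.5% and 39.3%, in the same order. SDHB, the iron-sulfur subunit, had a peak in all 21 target libraries. SDHA, the flavoprotein that oxidises succinate, had one in 9 of 9 libraries directed at TR4 and 7 of 9 directed at BCL11A. SDHC and SDHD are the membrane anchors. SDHC had a peak in 6 TR4-directed libraries and in 4 BCL11A-directed ones, and SDHD in 9 and 3.

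SDHD (chr11:112086873-112095794) combined one of the strongest TR4 peaks of the set with few BCL11A peaks. The authors' fold enrichment of its strongest peak was 160.4, 156 and 53.6 with MYC antibody in clone T, 188, 241 and 79.6 with TR4 antibody in clone T, and 154, 170.3 and 98.4 with TR4 antibody in clone TB. BCL11A-directed libraries had a fold of 7.37 in 1 MYC library of clone B and of 5.33 and 5.23 in 2 HA libraries of clone B, and no peak in the HA libraries of clone TB. MYC antibody in clone TB gave 101, 103 and 57.5. Every library in which TR4 was targeted was thus above every BCL11A-directed library, with the third replicate lowest in each TR4 group. The end of SDHD lies within 1 kb of an end of TIMM8B, so the peak cannot be assigned to either gene alone.

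SDHB (chr1:17018722-17054032) had folds of 26.4 to 69.4 in the 9 TR4-directed libraries (median 48.9) and of 7.56 to 21.03 in the 9 BCL11A-directed libraries (median 11.2). The ranges did not overlap, although every library had a peak. The summits of these peaks differed in place, with medians of -50 bases for TR4 and -201 bases for BCL11A from the nearest RefSeq start. SDHA (chr5:218320-268746) had lower folds that overlapped between targets, 5.82 to 19.3 in TR4-directed libraries (median 12.1) and 3.90 to 11.2 in the BCL11A-directed libraries that had a peak (median 8.23). An end of CCDC127 lies within 1 kb of an end of SDHA. SDHC (chr1:161314381-161363206) had folds of 5.38 to 18.5 in 6 TR4-directed libraries and 8.75 to 14.2 in 4 BCL11A-directed libraries, which overlap.

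Complex III, the cytochrome bc1 complex, had TR4 and BCL11A peaks at much the same genes. Of its 10 genes, 9, 7 and 7 had a group peak in the TR4-directed groups (MYC in clone T, TR4 in clone T, TR4 in clone TB), and 9, 8 and 9 in the BCL11A-directed groups (MYC in clone B, HA in clone B, HA in clone TB). Over all protein-coding genes the shares were 27.2%, 25.5% and 28.0%, and 44.8%, 42.5% and 39.3%, in the same order. UQCRQ, a small subunit in contact with cytochrome b, was the gene with a peak in all 21 libraries. UQCRHL, an intronless relative of the hinge protein gene UQCRH, had no peak in any library.

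UQCRC1, a core protein of the matrix side, had folds of 9.50 to 14.3 in 7 TR4-directed libraries (median 12.9) and of 8.37 to 35.3 in 9 BCL11A-directed libraries (median 21.9). UQCR11, another small subunit, had folds of 5.01 to 14.5 in 8 TR4-directed libraries (median 11.4) and of 7.45 to 27.7 in 9 BCL11A-directed libraries (median 22.3). For both genes the ranges overlapped, with the upper BCL11A values above any TR4 value. UQCRQ ran the other way in its medians, 14.2 in TR4-directed libraries and 9.78 in BCL11A-directed ones, and its ranges overlapped as well (7.81 to 20.4 and 5.71 to 16.9).

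The counts of the remaining complex III genes varied more widely. UQCR10 had a peak in 8 TR4-directed libraries and in 7 BCL11A-directed ones, UQCRB and UQCRH each in 7 and 9, and CYC1, the cytochrome c1 haem protein, in 7 and 7. UQCRFS1, the Rieske iron-sulfur protein, had a peak in 4 and 6, and UQCRC2, the second core protein, in 3 and 6. The folds of UQCRC2 were 3.76 to 4.59 in TR4-directed libraries and 7.61 to 12.3 in BCL11A-directed libraries. CYCS, the cytochrome c gene itself, had a peak in 7 TR4-directed libraries at folds of 3.26 to 7.61, and in 9 BCL11A-directed libraries at folds of 3.83 to 10.9.

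Complex IV, cytochrome c oxidase, had no peak in any target library at the ends of 7 of its 17 genes, beside 8315 of all 20037 protein-coding genes. Group peaks were at 6, 7 and 8 of the 17 genes in the TR4-directed groups and 9, 9 and 8 in the BCL11A-directed groups, in the order used for complex III. The TR4-directed shares were 35.3%, 41.2% and 47.1%, beside 27.2%, 25.5% and 28.0% of all genes. The BCL11A-directed shares were 52.9%, 52.9% and 47.1%, beside 44.8%, 42.5% and 39.3%. Of the genes with no peak, COX4I2, COX6A2, COX7A1, COX7B2 and COX8C are the isoforms known from restricted tissues such as lung, heart, skeletal muscle and testis. COX6B2, the testis isoform, had a peak in 4 TR4-directed libraries and in 6 BCL11A-directed ones, and 3 of MYC antibody in clone TB. Its window holds an end of GARIN5B, and its TR4 summits lay a median of 690 bases downstream of the nearest COX6B2 start.

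The widely used counterparts of these isoforms mostly had peaks. COX4I1 had one in 20 of 21 target libraries, COX6A1 in 18, COX6B1 in 21, COX8A in 20 and COX7B in 7. COX7A2 had none at the ends of its gene record, nor had COX7A2L, a related supercomplex factor. Both have a RefSeq start more than 1 kb inside the record, and peaks there were present in 18 and 16 of the 21 libraries, so their zero reflects where the window was drawn.

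COX4I1 (chr16:85799695-85807068), a core regulatory subunit, had the highest TR4 folds of complex IV. They were 24.8, 18.3 and 15.8 with MYC antibody in clone T, 34.3, 27.0 and 13.2 with TR4 antibody in clone T, and 26.5, 28.7 and 9.77 with TR4 antibody in clone TB. BCL11A-directed libraries had 11.4 and 17.4 in 2 MYC libraries of clone B, 10.6, 13.96 and 7.88 with HA antibody in clone B, and 6.70, 8.85 and 7.10 with HA antibody in clone TB. The ranges overlapped through the third TR4 replicates. An end of EMC8 lies within 1 kb.

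COX6B1, which joins the monomers of the oxidase dimer, had folds of 4.06 to 17.2 in TR4-directed libraries (median 12.1) and 6.00 to 22.3 in BCL11A-directed libraries (median 10.99), which overlapped almost wholly. COX8A had folds of 5.83 to 20.1 in 8 TR4-directed libraries and 8.89 to 28.8 in 9 BCL11A-directed libraries, and COX6A1 7.19 to 26.3 in 7 and 6.23 to 15.6 in 8. COX5A and COX5B, which sit next to the catalytic core, each had a peak in 6 TR4-directed libraries and in 8 BCL11A-directed ones. COX7C had one in 5 and 7.

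COX6C and COX7B leaned in opposite directions. COX6C had a peak in 7 TR4-directed libraries at folds of 3.801 to 15.05 and in 1 BCL11A-directed library at a fold of 3.88. COX7B had a peak in 1 TR4-directed library at a fold of 5.61 and in 5 BCL11A-directed libraries at folds of 3.50 to 5.82, all in the lower part of their lists by fold. An end of VPS13B lies within 1 kb of COX6C.

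Complex V, the ATP synthase, had group peaks at most of its genes for both proteins. Of its 20 genes, 17, 16 and 17 had one in the TR4-directed groups and 16, 17 and 14 in the BCL11A-directed groups, in the same order. These are 85%, 80% and 85%, and 80%, 85% and 70%, beside the shares of all genes given for complex III. The 2 genes with no peak at a gene end were ATP5MGL, a relative of the gene for subunit g, and ATP5MC2. ATP5MC2 had peaks in 16 of 21 libraries at RefSeq starts inside its record.

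ATP5ME (chr4:672436-674276), subunit e at the dimer interface in the membrane, had the highest median TR4 fold of the 52 genes at a gene end, 263. They were 296, 334 and 80.2 with MYC antibody in clone T, 259, 314 and 79.7 with TR4 antibody in clone T, and 266, 263 and 107 with TR4 antibody in clone TB. In BCL11A-directed libraries they were 8.73, 11.6 and 7.94 with MYC antibody in clone B, 10.1 and 12.8 in 2 HA libraries of clone B, and 6.70, 6.43 and 5.68 with HA antibody in clone TB. MYC antibody in clone TB gave 242, 261 and 154. No BCL11A-directed library reached any library in which TR4 was targeted. An end of MYL5 lies within 1 kb.

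ATP5PF (chr21:25724500-25735653), a stator subunit also called coupling factor 6, shares its upstream end with GABPA, an ETS-family activator of many respiratory genes. Its folds were 109.9, 135 and 38.4 with MYC antibody in clone T, 83.5, 116 and 36.0 with TR4 antibody in clone T, and 316, 328 and 229 with TR4 antibody in clone TB. They were 15.4, 28.5 and 12.5 with MYC antibody in clone B, 12.5, 28.1 and 11.3 with HA antibody in clone B, and 19.3, 19.8 and 12.1 with HA antibody in clone TB. MYC antibody in clone TB gave 302, 355 and 226. TR4-directed folds lay above all BCL11A-directed ones, and every fold of clone TB with TR4 or MYC antibody lay above every TR4-directed fold of clone T. At 1 kb all 18 libraries of the comparison had a peak, whereas within 500 bases of the record's ends 5 more TR4-directed than BCL11A-directed libraries did (adjusted p = 0.117 by the exact test).

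ATP5F1A, the α subunit of the catalytic head, had its strongest peak not at an end of its record but at a RefSeq start 5931 bases inside it. Folds there were 217, 229 and 89.5 with MYC antibody in clone T, 238, 307 and 113 with TR4 antibody in clone T, and 120.0, 108 and 65.8 with TR4 antibody in clone TB. BCL11A-directed libraries had 9.87, 12.9 and 4.18 with MYC antibody in clone B, 7.54 and 7.99 in 2 HA libraries of clone B, and no peak with HA antibody in clone TB. MYC antibody in clone TB gave 82.1, 85.2 and 53.8. Here the clone T folds of the first 2 replicates were above those of clone TB, the opposite of ATP5PF. At the record's ends, one of them within 1 kb of HAUS1, the folds were 7.97 to 26.0 in 8 TR4-directed and 6.11 to 11.7 in 7 BCL11A-directed libraries.

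**Figure D2:**
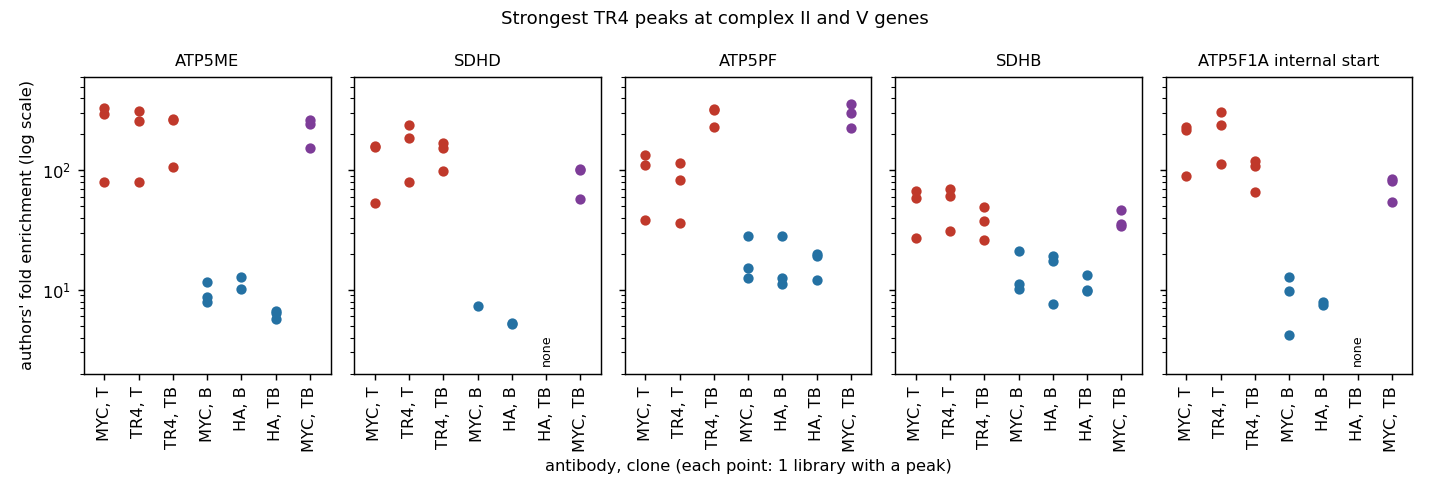
The authors' fold enrichment (log scale) at ATP5ME, SDHD, ATP5PF, SDHB and the internal start of ATP5F1A, with 1 point for each library that had a peak. TR4-directed libraries (red) and MYC antibody in clone TB (purple) lie above BCL11A-directed libraries (blue) at all 5 sites, and ATP5PF is highest in clone TB.

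ATP5PO (chr21:33903453-33915804), the stalk subunit OSCP, showed larger folds for BCL11A. They were 10.4, 13.1 and 5.70 with MYC antibody in clone T, 7.79, 15.7 and 5.73 with TR4 antibody in clone T, and 11.4, 12.1 and 8.55 with TR4 antibody in clone TB. In BCL11A-directed libraries they were 31.4, 38.2 and 17.96 with MYC antibody in clone B, 16.9, 33.5 and 13.9 with HA antibody in clone B, and 18.4, 17.9 and 7.74 with HA antibody in clone TB. The ranges overlapped, through the third HA libraries of both clones. ATP5F1E, the small ε subunit of the rotor, also had a peak in all 21 libraries, with folds of 6.84 to 18.3 in TR4-directed libraries and 9.23 to 25.9 in BCL11A-directed ones.

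ATP5F1B, the catalytic β subunit, was the gene with an IgG peak, at a fold of 5.49 in clone TB. It had a peak in 9 TR4-directed libraries at folds of 2.76 to 26.9 and in 8 BCL11A-directed libraries at folds of 4.94 to 17.7, so several target folds did not exceed the IgG value. An end of BAZ2A lies within 1 kb. ATP5F1D, the δ subunit, had folds of 5.18 to 25.9 in 8 TR4-directed and 12.7 to 30.5 in 9 BCL11A-directed libraries, and up to 39.7 with MYC antibody in clone TB. ATP5F1C, the central γ shaft, had a peak in 4 TR4-directed libraries and in 8 BCL11A-directed ones at folds of 4.59 to 8.43 and 4.97 to 17.3.

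The c ring of the rotor is encoded by ATP5MC1, ATP5MC2 and ATP5MC3, which give the same mature protein. ATP5MC1 had a peak in 8 TR4-directed libraries and in 9 BCL11A-directed ones, with folds of 4.53 to 18.1 and 4.94 to 18.6. ATP5MC3 had a peak in 9 TR4-directed libraries at folds of 6.06 to 23.3 and in 4 BCL11A-directed libraries at folds of 6.02 to 9.49. The internal starts of ATP5MC2 had a peak in 6 TR4-directed libraries and in 7 BCL11A-directed ones, at folds of 4.32 to 7.87 and 3.71 to 13.7.

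Other stator and membrane subunits and the inhibitor had peaks of both proteins. ATP5PB, ATP5PD and ATP5MK each had a peak in 7 TR4-directed libraries and in 9 BCL11A-directed ones, ATP5MF in 6 and 9, ATP5MG in 6 and 3, and ATP5MJ in 4 and 5. ATP5IF1, the inhibitor of the enzyme, known from zebrafish for a part in haem synthesis, had a peak in 7 and 8. ATP5MK folds were 8.18 to 17.9 in TR4-directed libraries and 8.35 to 31.5 in BCL11A-directed ones, which overlapped. Its median BCL11A fold, 22.6, was the highest of the 42 genes with a peak.

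**Figure D3:**
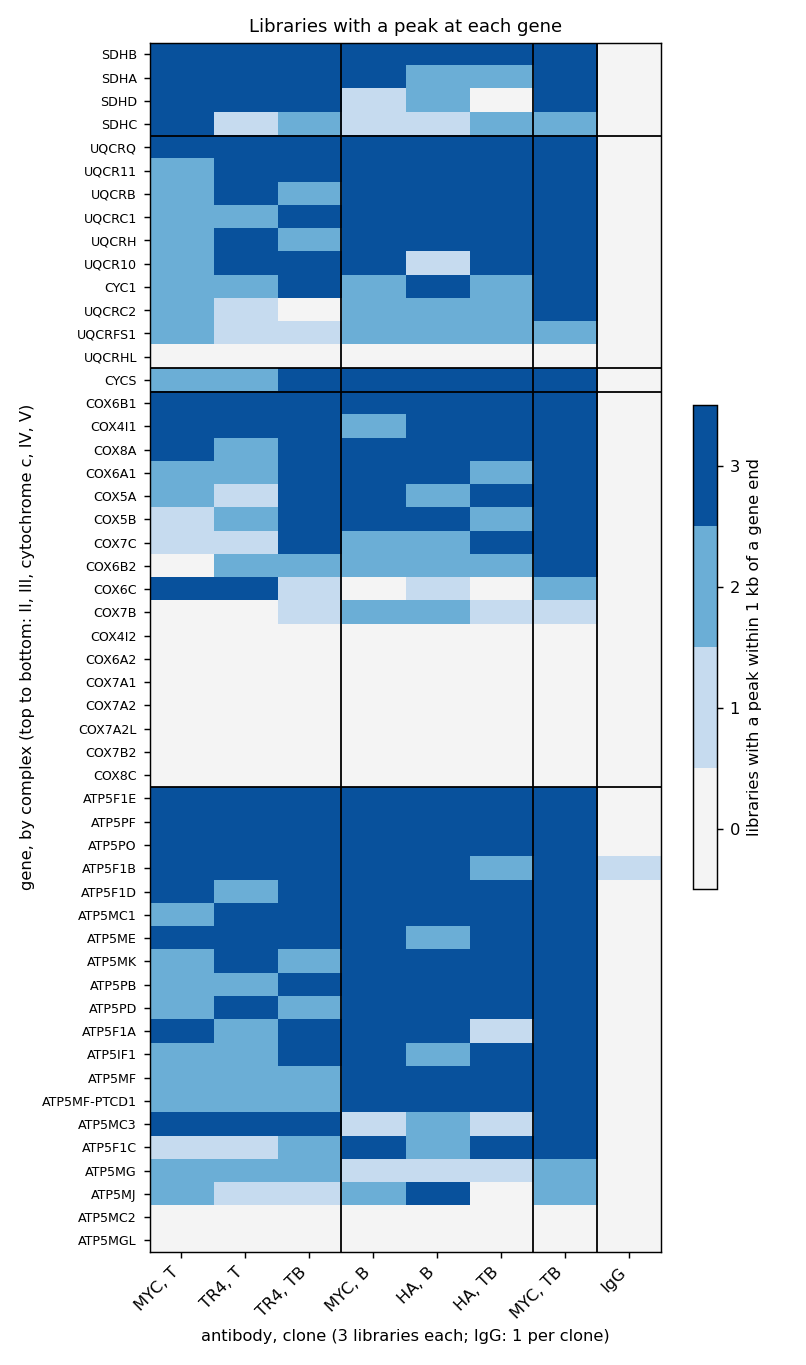
Number of libraries, 0 to 3, with a peak within 1 kb of a gene end for each of the 52 genes (vertical axis, grouped by complex) in the 7 target groups and in IgG (horizontal axis). Complex IV holds 7 of the 10 empty lines, among its 17 genes, and IgG has a peak at ATP5F1B alone. Of all 20037 protein-coding genes, 8315 had no target peak.

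The number of libraries with a peak was tested per gene, 9 TR4-directed against 9 BCL11A-directed, with Fisher's exact test (two-sided) and Benjamini-Hochberg adjustment over the 9585 protein-coding genes present in 4 or more of these 18 libraries. Of the 52 genes, 42 met that minimum and 10 did not. The test counted libraries that share a clone and an antibody as independent. Clone T supplied only TR4-directed and clone B only BCL11A-directed libraries, so target cannot be fully told apart from clone. At an adjusted p of 0.05, 0 of the 42 were called TR4-preferred, beside 0.856% of all genes tested, and 0 were called BCL11A-preferred, beside 10.7%. At an unadjusted p of 0.05, 3 genes were higher for TR4, beside 2.20% of all genes tested, and 0 for BCL11A, beside 26.2%.

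SDHD was closest to a call, with 9 TR4-directed and 3 BCL11A-directed libraries (exact p = 0.00905, adjusted p = 0.0555). COX6C followed with 7 and 1 (exact p = 0.0152, adjusted p = 0.0787), and ATP5MC3 with 9 and 4 (exact p = 0.0294, adjusted p = 0.117). The widest differences towards BCL11A were COX7B, with 1 TR4-directed and 5 BCL11A-directed libraries, and ATP5F1C, with 4 and 8 (adjusted p = 0.337 for each by the same exact test). None of these 5 passed the adjusted threshold. Leaving out 1 library gave 0 to 2 TR4-preferred calls, drawn from SDHD, COX6C and ATP5MC3, and 0 BCL11A-preferred calls each time.

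Over the 42 tested genes, the TR4-directed minus BCL11A-directed number of libraries ran from -4 to 6 with a median of -1, and over all genes tested from -9 to 9 with a median of -2. It was within 2 libraries of equal for 33 of the 42 (78.6%), beside 48.7% of all genes tested. TR4 was in more libraries at 11 genes, BCL11A at 24, and both in as many at 7. By complex the medians were 2 for complex II, -2 for complex III, -1.5 for complex IV and -1 for complex V.

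The calls depended on list length. In the lists of 4621 peaks, 24 of the 52 genes (46.2%) had a group peak with MYC antibody in clone T, beside 14.2% of all genes, and 17 (32.7%) with MYC antibody in clone B, beside 13.9%. In these lists 31 of the 52 genes could be tested. At the adjusted threshold 9 of them were TR4-preferred, beside 22.2% of all genes tested in those lists, and 0 were BCL11A-preferred, beside 14.6%. The 9 were SDHA, SDHB and SDHD of complex II, UQCR10 of complex III, COX4I1 and COX6A1 of complex IV, and ATP5F1A, ATP5MC3 and ATP5ME of complex V. ATP5ME, SDHD and COX4I1 had such a strong peak in 9 TR4-directed libraries and 0 BCL11A-directed libraries (adjusted p = 0.000338 for each by the exact test). ATP5PF, with 9 and 7, was not called, as 7 BCL11A-directed libraries also held such a peak.

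Ranked within each list by fold, the strongest TR4 peaks of the set were near the top. ATP5ME and SDHD were among the top 5% of peaks in all 9 TR4-directed libraries, ATP5PF in 7 and SDHB in 4. Peaks of this rank were not particular to the set. In the first MYC library of clone T, 4 of its 37 genes with a peak were in the top 5%, beside 10.4% of all genes with a peak. The first TR4 libraries had 4 of 33 in clone T, beside 8.94%, and 3 of 36 in clone TB, beside 9.26%. In BCL11A-directed lists the genes that reached the top 5% did so in at most 3 libraries each: ATP5F1D and ATP5PO in 3, UQCRC1, ATP5MK and ATP5MF in 2, and UQCR11 in 1. The first MYC library of clone B had 1 of 37 in the top 5%, beside 11.4% of all genes with a peak. The first HA libraries had 0 of 39 in clone B, beside 10.6%, and 2 of 37 in clone TB, beside 9.51%. The second HA library of clone B went the other way, with 6 of 41 beside 11.5%. The 6 include the peak shared by ATP5MF and ATP5MF-PTCD1 under both records. These shares were not tested. The other 38 genes with a TR4 peak had median TR4 folds of 4.31 (UQCRC2) to 24.8 (COX4I1), with 10.98 in the middle. The same 38 genes had median BCL11A folds of 3.88 (COX6C) to 22.6 (ATP5MK), with 11.8 in the middle.

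**Figure D4:**
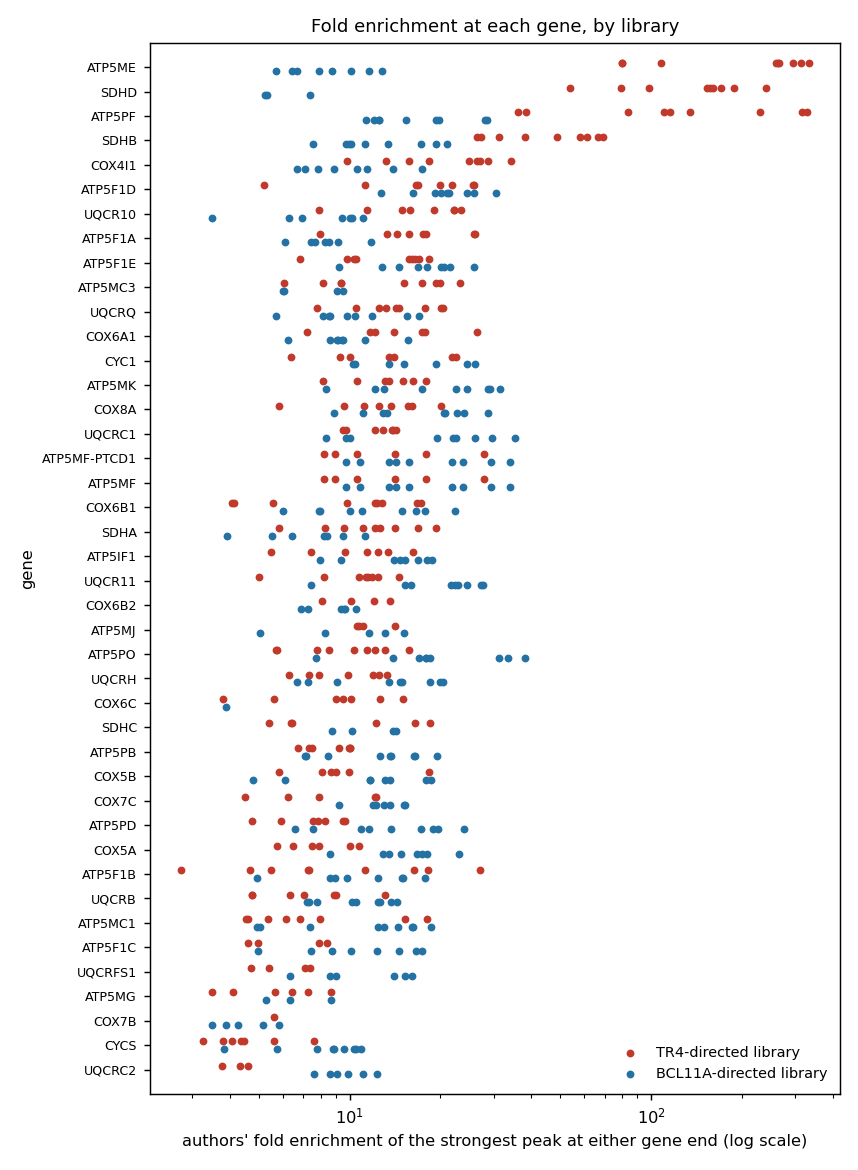
The authors' fold enrichment (log scale) of the strongest peak at either end of each of the 42 genes with a peak, with 1 point per TR4-directed (red, upper) or BCL11A-directed (blue, lower) library, ordered by the median TR4 fold. ATP5ME, SDHD, ATP5PF and SDHB stand apart on the right for TR4, with a median of 48.9 or more, and the 2 targets overlap at the other genes except UQCRC2, whose BCL11A folds lie above its TR4 folds. How many of all protein-coding genes lack such an overlap was not computed.

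Peaks lay at the 5′ end. Of 34 of these genes longer than 2 kb and with a known strand, 25 (73.5%) had a group peak at the 5′ end with MYC antibody in clone T and 28 (82.4%) with MYC antibody in clone B, and 0 had one at the 3′ end in either group. Over 14920 protein-coding genes of that kind, the 5′ share was 28.8% and 46.6%, and the 3′ share 2.53% and 4.71%. Median summits per gene lay upstream of the nearest RefSeq start by a similar distance for both proteins, at -90 bases for TR4 (33 genes) and -87.5 bases for BCL11A (33 genes), with 30 of 33 within 250 bases for each. Farther away lay UQCRC2, COX6B2 and ATP5MG for TR4, the last at -251 bases, and UQCRC2, COX6B2 and UQCR10 for BCL11A. An end within 1 kb of an end of another protein-coding gene was found at 19 of the 42 genes with a peak and 1 of the 10 without. ATP5MF and ATP5MF-PTCD1, which share an end with each other, are among the 19. The share over all protein-coding genes was not computed.

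**Figure D5:**
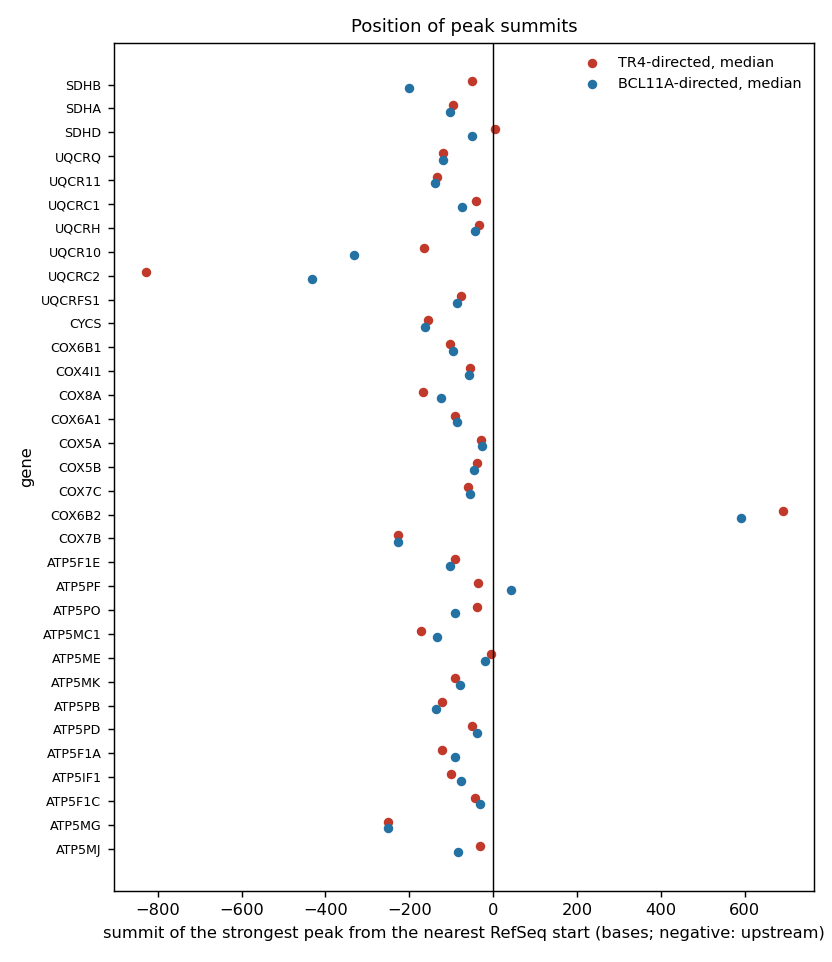
Median distance in bases from the nearest RefSeq start to the summit of the strongest peak (negative values lie upstream), for each gene with a RefSeq start, in TR4-directed (red) and BCL11A-directed (blue) libraries. Most genes have both medians within 250 bases of the start, and COX6B2 lies beyond 500 bases downstream.

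The strongest TR4 summits lay close to the marked half-sites in some promoters and far from them in others. Positions are counted from the RefSeq start as 0. In SDHD the half-site covers 11 to 16 and TR4 summits lay at -1 to 7, and in ATP5ME it covers 15 to 20 and summits lay at -17 to 1. At the internal ATP5F1A start, GGGTCA covers -43 to -38 and TGACCT covers -21 to -16, and the TR4 summit was at -35 in all 9 libraries. ATP5PF has GGGTCA at -77 to -72 and its summit was at -37 in all 9 libraries. In SDHB the half-site covers -223 to -218, whereas TR4 summits lay at -61 to -24. The BCL11A summits of SDHB lay at -256 to -54, with a median of -201. COX6A2 holds TGACCT at -125 to -120 and TGACCC at -26 to -21 and had no peak.

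RefSeq promoters were matched for 39 of the 52 genes, giving 45 promoters, and motifs were searched on both strands in the same 300 bases of 22199 promoters. AGGTCA was in 12 of the 45 (26.7%), beside 11.9% of all promoters. GGGTCA was in 12 (26.7%), beside 14.1%, and AAGGTCA, which contains AGGTCA, was in 7 (15.6%), beside 3.22%. A pair of AGGTCA in the same direction with 1 base between was in 0 of the 45, beside 0.0225% of all promoters. TGACCA, which shares TGACC with the reverse complement of AGGTCA, was in 3 (6.67%), beside 9.32%. These are matches of letters in a fixed window and say nothing of binding where they are missing.

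Motifs of the known activators of respiratory genes were searched in the same way. CCGGAAG, an ETS-family motif of the kind GABPA binds, was in 17 of the 45 promoters (37.8%), beside 12.8% of all promoters. GCATGCGC, an NRF1 motif, was in 10 (22.2%), beside 3.74%. The genes were ATP5ME, SDHD, SDHB, ATP5PF, ATP5F1C, ATP5MC2, COX5B, COX6A1 and CYCS. Among them CYCS had a median TR4 fold of 4.37, and the ATP5F1A internal promoter had no match to GCATGCGC. CCGGAAG was in the promoters of ATP5ME, SDHD, SDHB and ATP5PF and in the ATP5F1A internal promoter. It was also in promoters of genes with lower TR4 folds, such as ATP5PD with a median of 7.84. The relation of these motifs to TR4 folds was not tested. ATGGCGGC, a YY1 motif, was in 3 (6.67%), beside 3.91%, and GGGCGG, an SP-family motif, in 25 (55.6%), beside 56.3%.

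Assembly factors of complexes II to V, from a fixed list of 39 genes, had a group peak at 27 genes (69.2%) with MYC antibody in clone T, beside 27.2% of all genes, and at 36 (92.3%) with MYC antibody in clone B, beside 44.8%. Of the 37 tested, 0 were TR4-preferred, beside 0.856% of all genes tested, and 2 were BCL11A-preferred, beside 10.7%: TTC19 of complex III, with 0 TR4-directed and 8 BCL11A-directed libraries, and TMEM242 of complex V, with 1 and 9 (adjusted p = 0.00716 for each by the exact test). UQCC1, an assembly factor of complex III, went the other way with 9 and 3 and missed the threshold (adjusted p = 0.0555 by the exact test). SDHAF1, SCO1, SCO2, COX14, LYRM7, UQCC5 and FMC1 had a peak in all 18 of these libraries.

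Of 12 regulators of mitochondrial genes, 7 (58.3%) had a group peak with MYC antibody in clone T, beside 27.2% of all genes. With MYC antibody in clone B, 10 (83.3%) had one, beside 44.8%. Of the 10 tested, 0 were TR4-preferred, beside 0.856% of all genes tested, and 0 were BCL11A-preferred, beside 10.7%. ESRRA, GABPA, TFB1M, TFB2M and POLRMT, the mitochondrial RNA polymerase, had a peak in all 18 libraries. NRF1 had one in 0 TR4-directed libraries and in 2 BCL11A-directed ones, and TFAM, which packages mitochondrial DNA, in 1 and 6. Complex I, which was outside the gene rule, had group peaks at 18 of 38 subunit genes (47.4%) with MYC antibody in clone T and at 27 (71.1%) with MYC antibody in clone B. Of its 28 tested genes, 0 were TR4-preferred, beside 0.856% of all genes tested, and 1 was BCL11A-preferred, beside 10.7%. Mitochondrial ribosomal protein genes had 47 of 77 (61.0%) and 63 (81.8%), and cytosolic ribosomal protein genes 50 of 87 (57.5%) and 64 (73.6%), in the same 2 groups. The difference between these lists and complexes II to V was not tested.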

How the data were processed

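CUT&RUN peak lists of 24 libraries of 3 HUDEP-2 clones were read. The build was GRCh38 and the tools were MACS2 2.1.4, Bowtie2, Trimmomatic, SAMtools and Picard, per the submitters' processing notes, which as used here give no roles. The authors deposited 1 list per library, with a fold enrichment (a linear ratio), a −log10 q-value and a summit offset for each peak. The folds are the authors' own values, used for description and for ranking inside 1 list, and not tested. Read depth is unknown, so no interval is given.

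A peak was assigned to a gene of the RefSeq table when it shared at least 1 base with the 1000 bases on either side of a gene end. Strand and starts came from RefSeq promoters (GRCh38.p14) where they matched. Presence was tested by Fisher's exact test (scipy 1.17.1, Python 3.11.15), two-sided, Benjamini-Hochberg adjusted over all genes present in 4 or more of 18 libraries, at 0.05. The test was also run on simulated presence of peaks with known changed genes. Presence was drawn independently for each library, so that run does not cover libraries that share an antibody or a clone. The members, lists and tests were chosen with earlier results of these data known. GGGTCA and AAGGTCA were searched after the half-site matches had been seen. Values are given for the genes present in most libraries per complex, those differing by 4 or more libraries, those with no peak or an IgG peak, isoform pairs and c-subunit genes. Of the sequences, ATP5F1A, ATP5PO and COX6A2 were chosen after their values were seen. Alternatives changed list length, the q threshold, the window, the IgG filter, the libraries, the genes tested and the replicate block.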

Additional observations from a re-analysis of the deposited data

Results flagged for a closer look

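Peaks at starts that the gene-end windows do not reach were present in target libraries and in 0 of the 3 IgG libraries. ATP5F1A had a peak within 1 kb of its internal RefSeq start at chr18:46098296 in 17 of 21 target libraries (9 of 9 TR4-directed, 5 of 9 BCL11A-directed and 3 of 3 of MYC antibody in clone TB). ATP5MC2 had one in 16 target libraries at each of 3 neighbouring starts, chr12:53675419, chr12:53676083 and chr12:53676330, which share the same peaks (6 TR4-directed and 7 BCL11A-directed libraries). COX7A2 had one in 18 target libraries at chr6:75243801 (8 TR4-directed and 7 BCL11A-directed), and COX7A2L in 16 at chr2:42361217 (7 TR4-directed and 7 BCL11A-directed). Folds at the ATP5F1A start were 65.8 to 307 in TR4-directed libraries and 4.18 to 12.9 in BCL11A-directed ones. At the COX7A2 start they were 4.06 to 14.5 and 6.24 to 11.5, and at the COX7A2L start 5.21 to 18.7 and 4.60 to 21.7, both overlapping between targets.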

How the results depend on the processing

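The count of 0 BCL11A-preferred genes was the same under every alternative run. The count of 0 TR4-preferred genes became 9 with every list limited to its 4621 strongest peaks and 2 (SDHD and COX6C) with a −log10 q of at least 5. Leaving out 1 library gave 0 to 2, with 2 without HA antibody in clone B replicate 1, HA in TB replicate 1 or TR4 in TB replicate 1, and 1 without MYC in T replicate 1 or 2, TR4 in T replicate 2, TR4 in TB replicate 2 or 3, MYC in B replicate 2 or 3, HA in B replicate 2 or 3, or HA in TB replicate 3, and the adjusted p of SDHD between 0.0209 and 0.0496 where it was called. In the lists of 4621 peaks 6 differences changed direction. The TR4-directed minus BCL11A-directed values became 6 for COX6A1 (exact test, adjusted p = 0.0261), 3 for UQCRB, and 1 each for ATP5IF1, ATP5MJ, COX6B2 and COX7C. Such lists keep a smaller share of the longer BCL11A lists, and whether this accounts for the changes was not tested. Genes with a group peak with MYC antibody numbered 24 in clone T and 17 in clone B in those lists, 17 in clone T where all 3 libraries had to hold the peak, and 17 to 37 in clone T and 29 to 36 in clone B when a library was left out. Counting any RefSeq start gave 40 in each, an alternative chosen after seeing the data, as was leaving out replicate 3 of every group, which gave 0 calls in both directions. Without MYC antibody in clones T and B there were 0 calls among all genes, so that alternative says nothing of stability. Correlations between same-numbered libraries of different groups were -0.0453 to 0.0654 over 9 pairs. Over 18 differently numbered pairs they were -0.0480 to 0.0492. Replicate 3 lists were shorter than those of replicates 1 and 2 throughout, and a correlation cannot show such a shared shift in length. A fit with the replicate block gave 0 TR4-preferred and 0 BCL11A-preferred genes of the set. Over all genes tested that fit gave 91 and 1177, against 82 and 1030 without the block. Depth is unknown, and presence in a short list is limited by its length.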
